A study of Rattus norvegicus with 35 samples.

Results

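The genes described here encode cytochrome P450 enzymes and are those whose platform symbol is Cyp followed by a digit, without the cholesterol synthesis gene Cyp51. Symbols of this form marked 52 of the 10411 genes that could be named on the array. Each gene was read through the probe set (a group of short probes for a transcript) with the highest mean signal over all arrays. The probe set used for a member carries the symbol of 1 gene, and signals of different genes are not set against each other here. P450 genes of a subfamily are close copies. A probe set of the Cyp1a, Cyp2a, Cyp2b, Cyp2c, Cyp2d, Cyp2j, Cyp3a, Cyp4a, Cyp4f or Cyp11b genes may therefore also bind RNA of a relative, which was not tested.

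Cytochrome P450 enzymes are haem-containing monooxygenases that insert an atom of oxygen from molecular oxygen into a substrate. Most sit in the endoplasmic reticulum and take their electrons from a shared flavoprotein, P450 oxidoreductase, with help from cytochrome b5, while the mitochondrial members take them from ferredoxin. In the mammary gland the family is known for local handling of foreign chemicals, oestrogens, retinoic acid, vitamin D and fatty acids, although its largest site of expression is the liver.

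RNA of 35 rat tissue samples had been hybridised to Affymetrix RAE230A arrays. The 24 tumours are frozen mammary tumours induced by N-methyl-N-nitrosurea (NMU), a chemical carcinogen, in rats whose strain and age the labels do not give. The 11 normal samples are normal mammary glands, of which 8 are titled NewN1 to NewN8 and the other 3 are titled X27.1N, X28.1N and Young. The labels tie no sample to an animal or batch, so the spread behind each p-value is that between arrays and may hold technical spread. In tissue samples of mixed cells, fewer cells of a type and less RNA per cell cannot be told apart.

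Signals are given as deposited. A signal of 41.6, the 10th percentile of all values, was used as a floor in every fit, and a gene at or under it on an array has no measured level there. A log2 change is the mean log2 signal of tumours minus that of normal glands, with its standard error (SE), and a gene was called when limma gave it a Benjamini-Hochberg adjusted p under 0.05 over all probe sets. Of the 52 P450 genes, 26 were above the floor on all 35 arrays, 14 were at or under it on most arrays, and 2 of these (Cyp2c22 and Cyp2d3) were never above it.

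Arrays of the groups differed in their spread of signals. The 10th percentile of an array ran from 39.1 to 48.3 in tumours, against 33.4 to 39.0 in NewN glands and 40.8 to 42.3 in the 3 other normal glands. The 90th percentile ran the other way, from 491 to 678 in tumours and 639 to 763 in normal glands. Tissue makeup moved with the groups too. All 11 measured adipocyte markers were lower in tumours, with a summed signal of 397 to 5429 in tumours and 12691 to 35539 in normal glands, and 8 of 12 luminal epithelial markers were higher. Called lower were 5 of 8 basal and myoepithelial markers, 12 of 14 fibroblast and matrix markers, 9 of 10 endothelial markers, 6 of 8 macrophage markers and 5 of 7 lymphocyte markers. Their part in the results below was not tested.

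Among the P450 genes, 21 were called higher in tumours, 4 lower, and 27 were not called. The share called higher was 40.4% of the members, against 31.4% of all genes, and the share called lower was 7.69%, against 27.6% of all genes. No called P450 gene changed as much as 2-fold. The median log2 change was 0.13 over the members and 0.02 over all genes, but after quantile normalization it was 0.06 over the members and 0.07 over all genes. The groups overlapped for every P450 gene. This does not set the members apart, since groups without overlap were rare over all genes too, at 2.55%.

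Dim genes as a class leaned upward in tumours. Of the genes whose mean signal was at most 4 times the floor, 40.0% were called higher and 16.8% lower, with a median log2 change of 0.13. Of the genes above that level, 25.8% were called higher and 34.6% lower. The P450 genes fell mostly in the dim class. The 43 dim members held 19 of the 21 called higher (44.2% of the dim members) and 2 of the 4 called lower, with a median log2 change of 0.17. The 9 brighter members held 2 called higher and 2 called lower. The share of P450 genes called higher was thus near that of genes of like level. The share called lower was not, at 4.65% of the dim members against 16.8% of dim genes, though it rests on 2 members. This split by level was chosen after the data were seen.

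**Figure D1:**
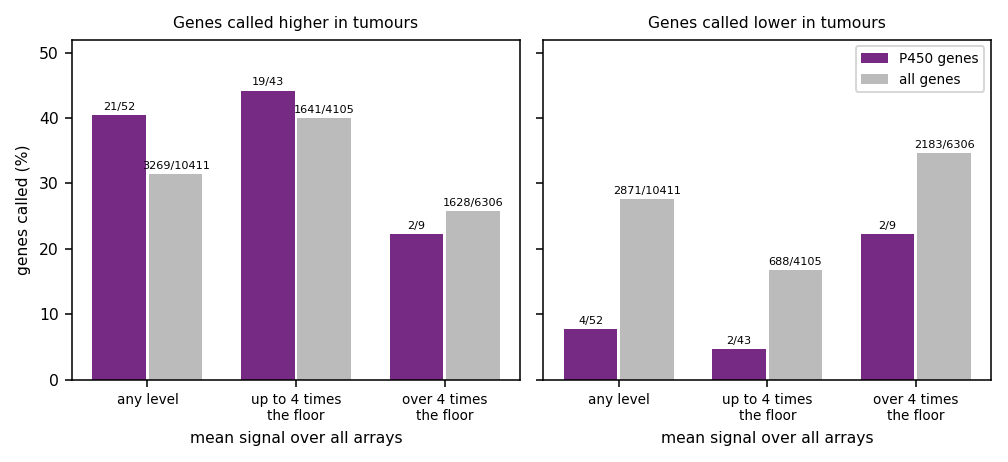
Share of genes called higher (left panel) and lower (right panel) in tumours, in percent, for the P450 genes (purple) and all genes (grey), at any mean signal, up to 4 times the floor and above it. Figures over the bars are genes called of genes tested. Among dim genes the higher share is 44.2% for P450 genes and 40.0% for all genes.

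**Figure D2:**
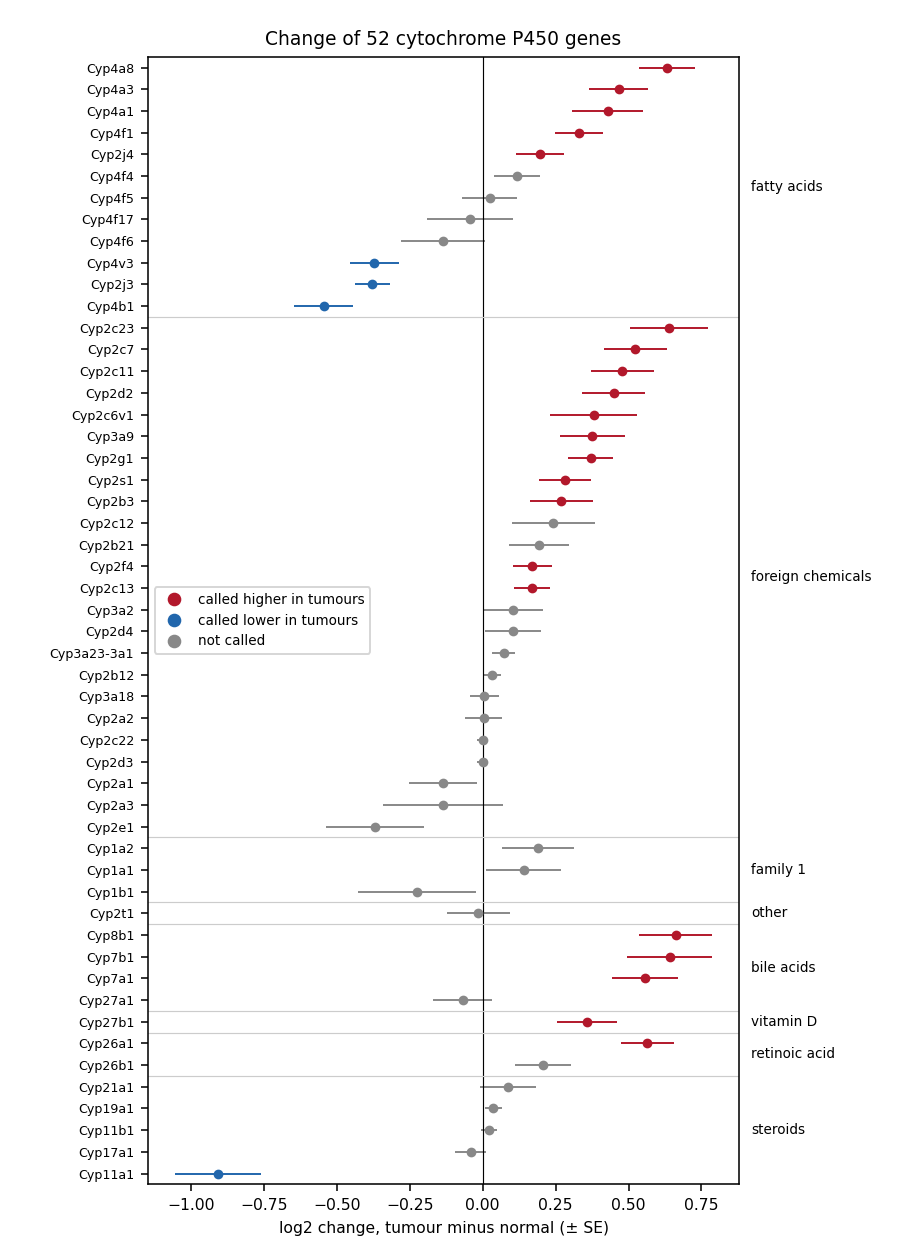
Log2 change, tumour minus normal, of each of the 52 P450 genes (points) with its SE (bars), grouped by the substrates the genes are known for. Red points are the 21 genes called higher, blue points the 4 called lower, and grey points the 27 not called. The changes run from -0.91 (Cyp11a1) to 0.66 (Cyp8b1).

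Changes of opposite direction stood next to each other among the fatty acid P450 genes of chromosome 5. In the RefSeq assembly GRCr8, Cyp4a3, Cyp4a1 and Cyp4b1 are neighbours on chromosome 5, with Cyp4a1 the only protein-coding gene between the outer pair. The Cyp4a genes, which hydroxylate the end carbon of fatty acids, were higher in tumours, and Cyp4b1, which acts on medium-chain fatty acids and several foreign chemicals, was lower. The 250 bases before the start of Cyp4a8 (chr5:133970227-133970476, minus strand), Cyp4a3 (chr5:134352237-134352486, minus strand) and Cyp4b1 (chr5:134393117-134393366, minus strand) are printed because these genes carry the contrast. Those of Cyp11a1 (chr8:67318415-67318664, plus strand) belong to the gene with the greatest fall among the members, and those of Cyp1b1 (chr6:21094315-21094564, plus strand) to the gene whose level ranged most widely over the tumours among the members never at the floor. Coordinates and sequences are from RefSeq, build GRCr8, written 5′ to 3′, with capitals marking the letters AGGTCA (the hexamer that many nuclear receptors bind) or GCGTG (the core bound by the dioxin receptor) on either strand.
Cyp4a8: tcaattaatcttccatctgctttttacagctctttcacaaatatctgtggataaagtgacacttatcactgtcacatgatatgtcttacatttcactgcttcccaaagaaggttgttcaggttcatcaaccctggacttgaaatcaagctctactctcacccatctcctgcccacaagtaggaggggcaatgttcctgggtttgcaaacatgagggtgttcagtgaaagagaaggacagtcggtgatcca
Cyp4a3: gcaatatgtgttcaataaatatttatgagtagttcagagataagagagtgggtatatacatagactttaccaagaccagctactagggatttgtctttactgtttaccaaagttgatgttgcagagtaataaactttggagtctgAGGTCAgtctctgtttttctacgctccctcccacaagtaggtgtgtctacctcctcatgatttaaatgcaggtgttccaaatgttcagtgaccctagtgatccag
Cyp4b1: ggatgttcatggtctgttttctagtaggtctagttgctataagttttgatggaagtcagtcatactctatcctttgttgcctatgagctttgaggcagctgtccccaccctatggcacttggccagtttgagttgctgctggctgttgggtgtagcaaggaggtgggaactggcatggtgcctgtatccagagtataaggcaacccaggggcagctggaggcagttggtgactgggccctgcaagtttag
Cyp11a1: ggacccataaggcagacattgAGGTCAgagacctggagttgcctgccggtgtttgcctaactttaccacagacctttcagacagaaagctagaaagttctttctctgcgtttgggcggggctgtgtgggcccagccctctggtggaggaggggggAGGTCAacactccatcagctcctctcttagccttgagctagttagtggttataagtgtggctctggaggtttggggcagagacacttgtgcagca
Cyp1b1: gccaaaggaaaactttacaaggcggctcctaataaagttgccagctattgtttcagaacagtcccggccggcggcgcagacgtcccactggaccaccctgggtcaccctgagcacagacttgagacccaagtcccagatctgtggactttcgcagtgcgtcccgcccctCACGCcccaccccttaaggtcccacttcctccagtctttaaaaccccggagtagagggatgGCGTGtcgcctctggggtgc

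The windows of 40 of the 52 members could be read in this way. AGGTCA occurred in 14 of them (35%), against 13.7% of 27457 windows of the same length over all genes, and GCGTG in 7 (17.5%), against 27.2%. Cyp4a3 holds AGGTCA and Cyp4a8 and Cyp4b1 hold neither motif. Cyp11a1 holds AGGTCA at 2 places, and Cyp1b1 holds GCGTG at 2 places, which begin 81 and 20 bases before its start. No match of one motif overlaps a match of the other in the printed windows, and a match is a description of these windows only.

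Of the 12 P450 genes known for fatty acids and eicosanoids, 5 were called higher, 3 lower and 4 were not called. The shares over all genes were 31.4% higher and 27.6% lower. Cyp4a8 had signals of 87.2, 117 and 185 (lowest, median and highest) in tumours, against 54.3, 77.0 and 95.2 in normal glands. In 20 of 24 tumours it was above every normal gland. Its log2 change was 0.63 (SE 0.10, limma adjusted p = 1.18e-06), a 1.55-fold difference. Cyp4a3 had signals of 161, 228 and 363 in tumours, against 125, 159 and 260 in normal glands, with a log2 change of 0.47 (SE 0.10, adjusted p = 0.00017 by limma). The groups overlapped: the lowest tumour, X8 at 161, lay below NewN6 and NewN7 at 165 and 178, and the highest gland, Young at 260, lay above most tumours. Cyp4a1 followed with signals of 74.4, 105 and 178 in tumours and 47.7, 76.5 and 121 in normal glands, and a log2 change of 0.43 (SE 0.12).

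Cyp4b1 was lower in tumours. Its signals were 158.2, 221 and 306 in tumours, against 249.1, 325 and 527 in normal glands. In 16 of 24 tumours it lay below every normal gland, and the highest normal value was that of X28.1N. The log2 change was -0.55 (SE 0.10, limma adjusted p = 2.54e-05), which is 31.5% lower on the log2 mean. Cyp4v3, a fatty acid hydroxylase expressed in the retina and elsewhere, had signals of 133, 207 and 256 in tumours, against 203, 264 and 328 in normal glands, and fell by 0.37 on the log2 scale (SE 0.08, limma adjusted p = 0.000313). All 8 NewN glands, at 263 or more, were above every tumour, while X28.1N, X27.1N and Young read 203, 217 and 224, inside the range of the tumours. A dimmer probe set of the same gene did not follow it, with a log2 change of 0.09 that was not called.

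The 2 measured Cyp2j genes, which epoxidise arachidonic acid and are direct neighbours on chromosome 5, were also called in opposite directions. Cyp2j4 had signals of 215, 271 and 357 in tumours, against 207, 234 and 302 in normal glands, with a log2 change of 0.20 (SE 0.08, limma adjusted p = 0.0388). Cyp2j3 had signals of 20.3, 30.5 and 53.6 in tumours, against 17.3, 57.6 and 70.1 in normal glands. It was at or under the floor in 19 of 24 tumours and in 1 of 11 normal glands, X27.1N. Its fall by 0.38 on the log2 scale (SE 0.06, adjusted p = 1.87e-06 by limma) is therefore compressed by the floor. Cyp2j4 lost its call under 5 of 16 alternative settings, and Cyp2j3 under 2 of the 15 in which it was tested.

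Within the Cyp4f genes, which hydroxylate leukotrienes and other eicosanoids, 1 of 5 was called. Cyp4f1 had signals of 40.0, 53.7 and 79.1 in tumours, against 19.1, 44.1 and 49.4 in normal glands, where 5 of 11 were at or under the floor, and its log2 change was 0.33 (SE 0.08). The log2 changes of the other 4 were 0.12 for Cyp4f4, 0.02 for Cyp4f5, -0.04 for Cyp4f17 and -0.14 for Cyp4f6, with SE of 0.08, 0.09, 0.15 and 0.14. Cyp4f17 and Cyp4f6 had their lowest tumour signals, 37.7 and 38.2, in the same tumour, X22L. That tumour had a summed luminal marker signal of 1368, the lowest of all tumours. Neither gene's relation to the luminal score over the 24 tumours passed after adjustment, with X22L or without it.

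**Figure D3:**
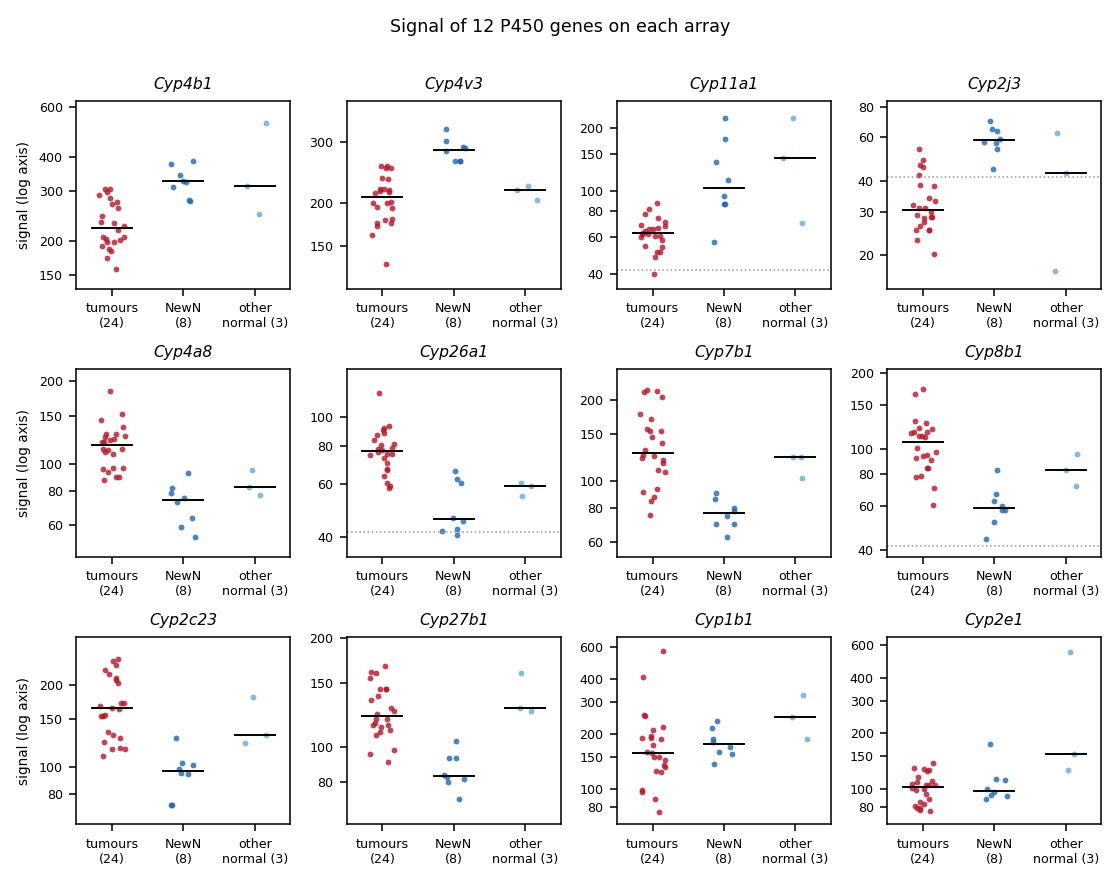
Deposited signal (log axis, scaled for each gene) of 12 P450 genes on each array, as points for 24 tumours, 8 NewN glands and 3 other normal glands, with the median of each set as a bar and the floor of 41.6 as a dotted line where it is in range. Tumours lie mostly below the normal glands for Cyp4b1, Cyp11a1 and Cyp2j3. For Cyp7b1, Cyp27b1 and Cyp2c23 the other normal glands lie among the tumours.

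Steroid hormone synthesis begins with Cyp11a1, the mitochondrial enzyme that cleaves the side chain of cholesterol to give pregnenolone. Cyp11a1 had signals of 39.9, 62.5 and 86.9 in tumours, against 56.6, 113 and 224 in normal glands. It fell by 0.91 on the log2 scale in tumours (SE 0.15, limma adjusted p = 3.74e-06), a level 46.7% lower on the log2 mean. The normal glands were spread more widely than the tumours, with NewN2 and X28.1N each at 224 and NewN6 and X27.1N at 56.6 and 69.9. For that reason only 6 tumours lay below every normal gland. The other 4 steroid hormone genes were not called. Cyp21a1, the steroid 21-hydroxylase, had signals of 55.7, 81.8 and 118 in tumours and 51.4, 74.6 and 107 in normal glands, with a log2 change of 0.09 (95% interval -0.10 to 0.28).

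Aromatase, Cyp19a1, which makes oestrogens from androgens, was not measurable in most samples. It was at or under the floor in 17 of 24 tumours and in all 11 normal glands, and its highest signal was 50.03, in tumour X28. Cyp17a1 and Cyp11b1, of androgen and corticosteroid synthesis, were at or under the floor in 15 of 24 tumours each, and in 7 and 10 of 11 normal glands. A difference was not detectable at the signals of these 3 probe sets. A further 6 probe sets carry several P450 symbols and name no single gene. Of these, 3 were called higher in tumours, with log2 changes of 0.42 to 0.60, and 1 with 2 Cyp2d symbols was called lower at -0.43. The higher ones include 2 with only Cyp11b symbols, at mean signals of 146 and 142 over all arrays and log2 changes of 0.51 and 0.60 (limma adjusted p = 0.000138 and 1.1e-05).

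The 3 measured family 1 genes, which the dioxin receptor Ahr is known to induce and which oxidise polycyclic hydrocarbons and oestrogens, did not pass the test (unadjusted p of 0.133 to 0.277 by limma). Cyp1b1, which forms 4-hydroxyoestradiol, had signals of 75.3, 157.7 and 566 in tumours, against 138, 188 and 325 in normal glands. Tumours lay on both sides of the normal range: 8 were below every normal gland, while X26 at 566 and X32 at 412 were above all of them. Its log2 change was -0.22 (95% interval -0.64 to 0.19, limma adjusted p = 0.355). Cyp1a1 had signals of 42.3, 97.3 and 125 in tumours and 49.8, 81.7 and 113 in normal glands, with a log2 change of 0.14 (95% interval -0.12 to 0.40). Cyp1a2 had signals of 42.3, 75.8 and 137 in tumours and 46.7, 65.7 and 90.9 in normal glands, with a log2 change of 0.19 (95% interval -0.06 to 0.44). Both had their lowest tumour signal in X32, the tumour with the second highest Cyp1b1 signal.

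For cholesterol and bile acid oxidation, 3 of 4 genes were called higher in tumours. The 3 have a mean signal up to 4 times the floor, a level at which 40.0% of all genes were called higher. Cyp8b1, the sterol 12-alpha-hydroxylase, had signals of 60.3, 106 and 173 in tumours, against 44.5, 62.8 and 96.1 in normal glands, and a log2 change of 0.66 (SE 0.13, limma adjusted p = 3.14e-05). In 14 of 24 tumours it was above every normal gland. Cyp7b1, the oxysterol 7-alpha-hydroxylase, had signals of 74.97, 128 and 217 in tumours, against 62.2, 79.9 and 124 in normal glands, with a log2 change of 0.64 (SE 0.15, adjusted p = 0.000349 by limma). The NewN glands lay at 62.2 to 90.8 for Cyp7b1 and the other normal glands at 103, 123 and 124, close to the median of the tumours. Cyp7a1, the rate-limiting enzyme of bile acid synthesis in liver, had signals of 65.1, 94.7 and 141 in tumours and 42.3, 62.0 and 105 in normal glands, and a log2 change of 0.56 (SE 0.11). Cyp27a1, the mitochondrial sterol 27-hydroxylase, was the fourth. It had signals of 321, 428 and 680 in tumours and 368, 457 and 564 in normal glands, with 5 tumours above and 5 below every normal gland, and a log2 change of -0.07 (95% interval -0.27 to 0.13).

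Other genes of the liver were set beside these because Cyp7a1 and Cyp8b1 are liver genes. Of 11 liver markers measured, 5 were called higher in tumours and 1 lower. The summed signal of the list ran from 771 to 2091 in tumours and from 982 to 4143 in normal glands. The marker that was lower is Alb (albumin), with a median signal of 27.3 in tumours and 1199.8 in normal glands, and its highest signal was in X28.1N. The part of liver markers in the bile acid genes was not tested.

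For vitamin D, Cyp27b1, the 1-alpha-hydroxylase that makes the active hormone, had signals of 90.6, 122 and 167 in tumours, against 71.9, 92.9 and 160 in normal glands. Its log2 change was 0.36 (SE 0.10, limma adjusted p = 0.00324). The glands differed among themselves: the NewN glands lay at 71.9 to 104 and the other 3 at 126, 128 and 160, inside the range of the tumours. Against these 3 glands alone, the direction turned, with a log2 change of -0.14 that was not called.

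For retinoic acid, the clearing enzyme Cyp26a1 was called higher, while its relative Cyp26b1 did not pass. Cyp26a1 had signals of 57.9, 77.0 and 120 in tumours, against 40.5, 54.7 and 65.9 in normal glands, and 20 of 24 tumours were above every normal gland. Its log2 change was 0.56 (SE 0.09, limma adjusted p = 2.67e-06). Cyp26b1 had signals of 166, 240 and 373 in tumours, against 146, 204 and 255 in normal glands, with a log2 change of 0.21 (95% interval 0.01 to 0.40, limma adjusted p = 0.0628).

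Of the 24 genes known for foreign chemicals and drugs, 11 were called higher in tumours and none lower by limma, while 1 (Cyp2e1) had an unadjusted p under 0.05 on the lower side. All but 2 of these genes have a mean signal up to 4 times the floor, a level at which 40.0% of all genes were called higher. Several of these genes are known for male-specific, female-specific or inducible expression in rat liver. Of the 7 Cyp2c genes, 5 were called higher. Cyp2c23, an arachidonic acid epoxygenase, had signals of 110, 165 and 250 in tumours, against 72.8, 102 and 181 in normal glands, with a log2 change of 0.64 (SE 0.13, limma adjusted p = 0.000129). Cyp2c7, a retinoic acid hydroxylase of rat liver, had signals of 64.8, 94.4 and 134 in tumours and 39.8, 71.4 and 84.8 in normal glands, with 17 of 24 tumours above every normal gland and a log2 change of 0.52 (SE 0.11). Cyp2c11, the male-specific steroid hydroxylase of rat liver, had signals of 68.1, 106 and 161 in tumours and 50.9, 75.9 and 107 in normal glands, and a log2 change of 0.48 (SE 0.11). Cyp2c6v1 had a log2 change of 0.38 (SE 0.15), with mean signals of 108 in tumours, 72.0 in NewN glands and 109 in the 3 other normal glands. Cyp2c12, the female-specific gene of rat liver, had signals of 67.01, 115 and 208 in tumours and 68.7, 95.7 and 144 in normal glands, and its log2 change of 0.24 (SE 0.14) did not pass.

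Cyp2c13 and Cyp2f4 were at or under the floor in all 11 normal glands. Cyp2c13, another male-specific liver gene, had signals of 23.3, 43.4 and 63.2 in tumours, with 15 of 24 above the floor, and a log2 change of 0.17 (SE 0.06, limma adjusted p = 0.0181). Cyp2f4, a lung enzyme, had signals of 16.5, 43.4 and 74.3 in tumours, with 14 of 24 above the floor, and a log2 change of 0.17 (SE 0.07, limma adjusted p = 0.0299). In both fits the tumours under the floor were raised to it too, so these changes are no bound on the fold, and both lost their call with the floor at the 20th percentile.

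The other 5 called foreign-chemical genes have signals close to the floor as well. Cyp2d2 had signals of 48.1, 65.7 and 99.1 in tumours and 37.3, 48.4 and 68.2 in normal glands, and a log2 change of 0.45 (SE 0.11). Cyp3a9 had signals of 16.1, 53.6 and 88.6 in tumours and 25.03, 33.4 and 42.6 in normal glands, of which 10 of 11 were at or under the floor, and a log2 change of 0.38 (SE 0.11). Cyp2g1, an olfactory enzyme, had signals of 39.9, 56.1 and 80.5 in tumours and 31.4, 37.3 and 51.7 in normal glands, and a log2 change of 0.37 (SE 0.08). For all 3 the fit sees part of the normal glands at the floor. Cyp2s1, which is known in epithelia, and Cyp2b3 had log2 changes of 0.28 (SE 0.09) and 0.27 (SE 0.11).

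The 2 genes for foreign chemicals with a mean over 4 times the floor, Cyp2a1 and Cyp2d4, did not pass. Cyp2a1 had signals of 253, 403 and 685 in tumours and 363, 459 and 597 in normal glands, with a log2 change of -0.14 (95% interval -0.37 to 0.10). Cyp2d4, known from brain, had signals of 221, 306 and 416 in tumours and 223, 275 and 413 in normal glands, with a log2 change of 0.10 (95% interval -0.09 to 0.30). Its other probe set gave 0.28 and was called. Dimmer genes that did not pass were Cyp2a3, Cyp3a2 and Cyp2b21. Cyp2a3, of nose and lung, had signals of 31.6, 107 and 246 in tumours and 64.9, 118 and 161 in normal glands, so that tumours spread beyond the glands on both sides. Cyp3a2 and Cyp2b21 had log2 changes of 0.11 and 0.19 (SE 0.10 each), and Cyp2t1, which has no assigned substrate here, had one of -0.01 (SE 0.11). Cyp2a2, Cyp2b12, Cyp3a18 and Cyp3a23-3a1 were at or under the floor on most arrays, and so were Cyp2c22 and Cyp2d3 on every array.

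Cyp2e1, which oxidises ethanol and small solvents, had 1 gland far above all other arrays. Its signals were 75.7, 103 and 138 in tumours, against 87.9, 112 and 552 in normal glands. The highest gland, X28.1N, was followed by NewN1 at 174 and Young at 154. The log2 change of -0.37 (SE 0.17) did not pass, with an adjusted p of 0.0564 by limma. Without X28.1N it was -0.16 (limma adjusted p = 0.203). X28.1N also had the highest summed adipocyte and liver marker signals of all arrays, 35539 and 4143, and the part of these markers was not tested.

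The normal glands were not of one kind for the P450 genes. In a fit of 3 sets of samples, 36 members had a lower mean in NewN glands than in the 3 other normal glands, 9 had a higher one, and the 7 at or under the floor in every normal gland had no difference. The lower mean was thus seen in 69.2% of members, against 49.6% of all genes. At a mean signal up to 4 times the floor it was seen in 67.4% of members, against 59.6% of genes. Called lower in NewN glands were 3 members (5.77%), against 4.85% of all genes. Cyp2e1 had a log2 difference, NewN minus other, of -1.06 (SE 0.26, limma adjusted p = 0.00812), Cyp27b1 one of -0.68 (SE 0.16, adjusted p = 0.00463 by limma) and Cyp2c11 one of -0.56 (SE 0.18, adjusted p = 0.0395 by limma). For Cyp2e1 the difference without X28.1N was -0.39 (limma adjusted p = 0.285). Over the members, the median signal of an array ran from 63.4 to 115 in tumours, 60.4 to 74.7 in NewN glands and 77.3 to 89.1 in the other normal glands. Here too NewN glands were the lowest set by median, as for the 10th percentile of all signals, whose part was not tested.

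The count of members called higher depended on the glands used. Against the 8 NewN glands alone, 21 members were called higher and 4 lower. Against the 3 other glands alone, 1 member (Cyp4a8) was called higher and 3 lower, of which 2 (Cyp11a1 and Cyp4b1) were among the 4 above. That fit rests on fewer samples, and over all genes it called 6.87% higher. The members' median log2 change was 0.17 against the NewN glands alone and 0.04 against the 3 other glands alone. The part of the number of samples was not tested. Of all members, Cyp4a8 and Cyp4b1 were called in the same direction under each of 16 alternative settings. For Cyp4a8 the highest adjusted p by limma among them was 0.0498, only just under the threshold. Cyp11a1 was called under each of the 15 in which it was tested, and was too dim for the brighter 75% of probe sets. That setting left out 13 of the called members, Cyp11a1 among them, so these could not be called under each setting.

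Tumours also differed among themselves. X28 gave the highest tumour signal for 13 of the 52 members and X4 for 8, while X32 gave the lowest for 9 and X25R for 7. The 10th percentile of all signals was 48.3 in X28 and 47.9 in X4, against 39.8 in X32 and 40.1 in X25R. X27, at 47.7, gave the highest signal for 1 member, and X9, at 39.1, the lowest for 5. The part of this percentile was not tested. Among normal glands, X28.1N gave the highest signal for 15 members and Young for 12. Tumour X28 and gland X28.1N, which share a number in their titles, were both the highest of their groups for 7 members. For X27 and X27.1N, which also share a number, this held for 1 member. It held for 2 members for X28 with X27.1N and for 0 for X27 with X28.1N. Within the 24 tumours, 42 members above the floor in enough samples were related to scores of luminal, fibroblast and adipocyte markers. Of these 126 relations, none passed a two-sided permutation test of Pearson's r after Benjamini-Hochberg adjustment, while 12 had an unadjusted p under 0.05 (21 for Spearman's rho).

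Genes of proteins that serve P450 enzymes, and of related receptors and enzymes, were measured as RNA beside them. Of 86 genes on 7 lists of partners, receptors and related enzymes, 21 were called higher in tumours, 37 lower and 28 were not called. Over all genes, 31.4% were called higher and 27.6% lower. The electron donors and haem-binding partners had 8 of 9 measured genes called lower, with a median log2 change of -0.64, against 27.6% lower over all genes. Por, the oxidoreductase that feeds microsomal P450 enzymes, had signals of 281, 416 and 611 in tumours, against 404, 672 and 1261 in normal glands, and fell by 0.64 on the log2 scale (SE 0.13, limma adjusted p = 6.08e-05). In 12 of 24 tumours Por was below every normal gland. The largest falls of the list were those of Pgrmc2, a haem-binding membrane protein (-1.62), Cyb5b, the outer mitochondrial cytochrome b5 (-1.10), and Cyb5r3, a cytochrome b5 reductase (-1.08). Cyb5a, the microsomal cytochrome b5, fell by 0.82, and Fdx1, the ferredoxin that serves mitochondrial P450 enzymes such as Cyp11a1, fell by 0.22. Pgrmc1, a relative of Pgrmc2, had a log2 change of 0.02 and was not called.

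Genes of haem synthesis were called in both directions, and those of haem breakdown in 1. Alas1, the first and rate-limiting enzyme of haem synthesis outside red cells, had signals of 58.3, 94.5 and 152 in tumours, against 139, 171 and 230 in normal glands. Its log2 change was -0.80 (SE 0.12, limma adjusted p = 9.3e-07). Fech, which inserts the iron, fell by 0.68, while Ppox and Slc25a38, 2 of the 7 measured synthesis genes, rose by 0.24 and 0.25. Of 3 measured genes of haem breakdown, Blvra fell by 0.78 and Hmox2 by 0.18, and the inducible Hmox1 was not called at -0.17 (SE 0.27).

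Of 22 receptors and related factors that control P450 genes, 8 were called higher and 6 lower, near the 31.4% and 27.6% of all genes. Ppara, the fatty acid receptor known to induce Cyp4a genes, had signals of 95.98, 147 and 218 in tumours, against 51.8, 78.1 and 132 in normal glands, with a log2 change of 0.82 (SE 0.13, limma adjusted p = 1.36e-06). Arnt, the partner of the dioxin receptor, rose by 0.74 and Nr1i3, the receptor known to induce Cyp2b genes, by 0.63. The dioxin receptor Ahr itself had signals of 238, 306 and 402 in tumours, against 159, 255 and 288 in normal glands, and rose by 0.38 (SE 0.08, limma adjusted p = 0.000156), while none of the 3 family 1 genes above was called. Tiparp, another gene that Ahr is known to induce, fell by 0.31. The greatest falls of the list on the log2 scale were those of Pparg, the adipocyte fatty acid receptor (-3.96), Nr1h3, an oxysterol receptor (-2.43), and Rxrb, a partner of many of these receptors (-0.56).

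The counts of the next 3 lists stand beside 31.4% higher and 27.6% lower over all genes. Of 17 other oxidases and epoxide hydrolases, 11 were lower and 1 was higher. The greatest falls on the log2 scale were those of Fmo1, a flavin monooxygenase for drugs (-2.24), Xdh, the xanthine dehydrogenase (-1.18), and Aox1, an aldehyde oxidase (-1.16). The epoxide hydrolases Ephx1 and Ephx2, which act on the epoxides that P450 enzymes make, fell by 0.83 and 0.51. Aldh1a2, which makes retinoic acid, rose by 0.69. Of 17 steroid enzymes and transport genes, 6 were lower and 5 higher, near the shares of all genes. The 6 lower were led by Akr1c14 (-2.92), Tspo (-1.28), a mitochondrial outer membrane protein, and Hsd17b4 (-0.73). The 5 higher were led by Hsd11b1 (0.81), which regenerates glucocorticoids, Hsd3b1 (0.61) and Hsd17b7 (0.30). Of 11 retinoid genes, 5 were higher, led by the retinoic acid carrier Crabp2 (1.54), the retinol receptor Stra6 (1.29) and Bco1 (0.41), and 2 were lower, the retinol carrier Rbp4 (-5.79) and Dgat1 (-1.17).

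**Figure D4:**
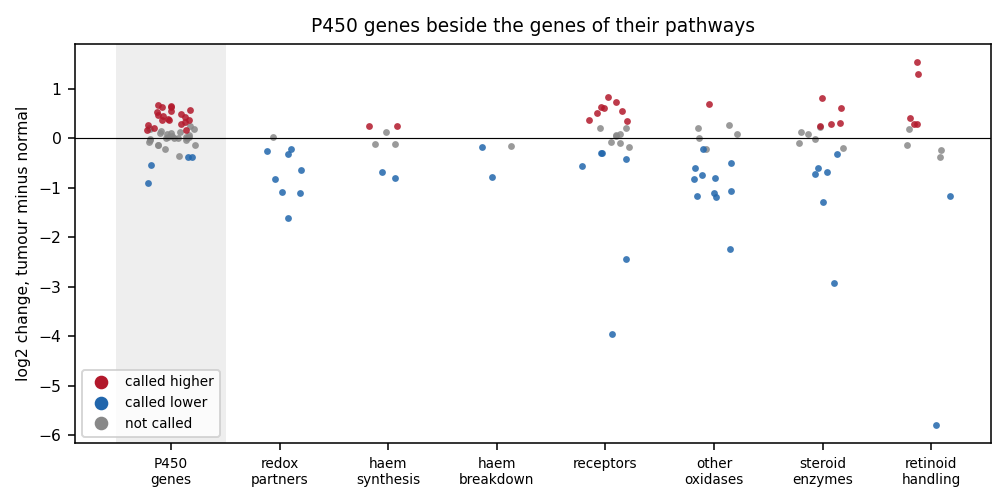
Log2 change, tumour minus normal, of the 52 P450 genes (shaded column) and of the genes measured on 7 partner lists, each point a gene, red where called higher in tumours, blue where called lower and grey where not called. P450 genes lie between -0.91 and 0.66, and 8 of 9 redox partners lie below 0 and were called.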

How the data were processed

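The values analysed are deposited intensities, linear in scale, whose processing by the authors is not given in the sources used here. Its lowest value is 1. After 57 control probe sets were removed, 15866 remained. Signals were kept at the authors' scale, floored at their 10th percentile (41.6) and turned into log2. Symbols came from the platform annotation, and all 52 P450 genes matched RefSeq GRCr8 by Entrez identifier. Probe sets with several P450 symbols (6, of which 4 were called) were not used for members. The 24 tumours were tested against 11 normal glands in limma 3.58.1 under R 4.3.3 (trend and robust eBayes, no covariate), and NewN glands with the other 3 in a fit of 3 sets. Called means a Benjamini-Hochberg adjusted p under 0.05. On simulated data the tumour comparison recovered 46% of 1.25-fold, 92% of 1.5-fold and 98% of 2-fold changes. The comparison of NewN glands recovered 4%, 30% and 88%. At each fold 50 of the 15866 probe sets were altered, whereas 9238 were called in the deposited data. The altered ones were drawn only from probe sets whose mean log2 signal was more than 1 above the log2 floor. No probe set nearer to the floor was altered. Recovery among dim probe sets alone, where most P450 genes lie, was not tested. Relations used 100000 permutations. The members and lists were chosen with earlier results of these data known. Values are given for called members, members above the floor on at least 50% of the arrays of a group, and members above 4 times the floor (166) on any array, and for up to 3 called genes with the greatest rise and fall of each partner list; Por, Cyb5a, Fdx1, Pgrmc1, Hmox1, Ahr, Tiparp, Ephx1, Ephx2 and albumin were added after their values were seen. Alternatives covered scaling, floor, dim probe sets, spread model, weights, blocks, glands and probe sets per gene. Figures were drawn with matplotlib 3.10.9.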

Additional observations from a re-analysis of the deposited data

Results flagged for a closer look

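Between normal glands, 3 P450 genes differed, comparing the 8 NewN glands with the 3 other normal glands, although both sets carry the same label of normal gland. These are 5.77% of the members, while 1045 of 10411 genes (10%) were called in either direction. The difference itself was tested in the limma fit of 3 sets. The log2 difference, NewN minus other, was -1.06 for Cyp2e1, -0.68 for Cyp27b1 and -0.56 for Cyp2c11. The Cyp2e1 signals were 87.9 to 174 in NewN glands, against 126, 154 and 552 in X27.1N, Young and X28.1N, so that X28.1N carried much of it. Cyp27b1 and Cyp2c11 did not overlap between the 2 sets. Their NewN glands lay at 71.9 to 104 and 50.9 to 80.8, against 126 to 160 and 96.9 to 107 in the other glands. Cyp2c7 and Cyp7b1, lower in NewN glands, and Cyp4f17 and Cyp4v3, higher there, did not overlap either and were not called. The share without overlap over all genes was not counted. The 10th percentile of signals was also lower in NewN glands, at 33.4 to 39.0, against 40.8 to 42.3 in the others, and its part was not tested.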

How the results depend on the processing

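The count of P450 genes called higher was 21. It was 13 with the floor at the 20th percentile, 10 among the brighter 75% of probe sets (24 members tested) and 1 against the 3 other normal glands alone, and 17 to 25 under the other 13 alternatives. In the main fit 31.4% of all genes were called higher. The shares were 27.4%, 30.3% and 6.87% in the settings just named, and 30.5% to 36.9% under the others. The count called lower was 4. It was 2 among the brighter 75% of probe sets and 3 to 5 otherwise. Quantile normalization called 18 of 52 higher (17 of the 21) and 5 lower, where 33.9% of all genes were called higher. The median log2 change was then 0.06 over the members and 0.07 over all genes. Against the 3 other glands Cyp27b1 and Cyp2c6v1 turned direction, to -0.14 and -0.046, and partner genes numbered 1 higher and 20 lower, against 21 and 37. Over all genes that fit called 715 higher and 1160 lower, against 3269 and 2871 in the main fit. The count of members differing between NewN and other glands, 3, was 1 without Young, 9 in a fit of the 11 normal glands alone and 2 or 3 otherwise. The cause of these moves was not tested. The brighter set holds fewer members, and the 3 glands are fewer samples. The members' median log2 change also moved, from 0.17 against the NewN glands alone to 0.04 against the 3 other glands alone. Over all genes these medians were 0.02 and 0.03. With the title number as a replicate block, 22 members were higher and 5 lower, and 21 and 37 partner genes. Only 2 numbers join a tumour to a normal gland, too few to tell whether a number marks a shared animal or batch. Deviations from the group means over all genes correlated at 0.20 for number 27 and 0.25 for number 28, against 0.11 and 0.22 for the crossed pairs, and at 0.01 and 0.37 for the tumours that share 25 and 29. Relations within tumours passed in 0 cases also without X22L and after quantile normalization. Alternatives without X28.1N were chosen after the data were seen, and they kept 20 of the 21 higher and all 4 lower. Cyp2e1 passed in 5 of the alternatives, with a change of -0.38 to -1.14, and Cyp26b1 in 6. Signals near the floor limit most members, since 43 of 52 have a mean under 4 times it.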
